A study of Mus musculus with 4 samples.

Results

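The H2 genes of the mouse were examined for acetylated histone H3 at their promoters in the left ventricle. Members were all genes whose RefSeq transcript in the promoter count table maps to a symbol beginning with H2-, each represented by its RefSeq transcript with the highest mean count. This rule found 40 genes, with 43 RefSeq transcripts, among 23631 genes with 31594 RefSeq transcripts. H2-Q6 and H2-Q8 had identical counts in every library, as did H2-Q7 and H2-Q9, so each pair was counted once and 38 promoters remained. They comprised 2 classical class I genes and 24 class Ib promoters (7 Q series, 6 T series and 11 M series). Another 9 were class II promoters (4 of alpha and beta chains and 5 of DM and DO). The rest were 2 pseudogenes kept outside these series, H2-K2 and H2-Bl, and H2-Ke6. H2-Q5 and H2-T10 are also annotated as transcribed pseudogenes but were counted in the Q and T series. H2-Ke6 lies in the same region but encodes a hydroxysteroid dehydrogenase, not an MHC chain.

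Chromatin immunoprecipitation with an antibody to acetylated histone H3 (H3Ac), a mark of active promoters, was followed by sequencing. The left ventricles came from male mice of the C57BL6 strain, 10 to 12 weeks old. The TAC TSA group had transverse aortic constriction (TAC), which loads the left ventricle with pressure, and subcutaneous trichostatin A (TSA), which inhibits histone deacetylases, given in DMSO at 0.6 mg per kg per day. The TAC Veh group had the constriction and DMSO alone, the Sham TSA group a sham operation and TSA, and the Sham Veh group a sham operation and DMSO. All groups were injected 2 times a day for 4 weeks, so every animal received the solvent. Each group had 1 library, so there is no replicate behind any value, and the labels do not say whether a library pooled animals. Only the sham libraries are labelled as coming from an earlier deposit, so surgery and the making of the libraries cannot be told apart.

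MHC class I molecules display peptides from inside the cell to CD8 T cells and are made by nearly all nucleated cells. Class Ib genes are their less variable relatives, several of which present special ligands to innate-like lymphocytes. Class II molecules display peptides from endocytosed proteins to CD4 T cells and are made mainly by dendritic cells, macrophages and B cells, under the coactivator CIITA. The corresponding coactivator of class I genes is NLRC5. Both act through a promoter module that includes an X box and a Y box (an inverted CCAAT box), and class I promoters also carry an upstream kappaB element.

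Of the 40 genes, 31 had a promoter in the RefSeq promoter table (GRCm38.p6, 250 bases before to 50 bases after the start). The promoters of H2-K1 and H2-D1 are shown as the classical class I pair, those of H2-Q6 and H2-Q7 for their likeness to them, and that of H2-T22 as a T series gene whose counts, like those of H2-T24 and H2-T10, were lowest in TAC TSA. H2-M1 had the lowest count of the family, and H2-Aa and H2-Eb1 encode class II chains. Capitals mark every match, on either strand, to 4 motifs: the Y box core ATTGG, whose opposite strand reads CCAAT, the TGACG core of the cyclic AMP response element within the X box region, the interferon-stimulated response element core GAAANNGAA, and the kappaB core GGGNNTTCC. The windows are chr17:34000298-34000597 (minus strand) for H2-K1, chr17:35262844-35263143 (plus strand) for H2-D1, chr17:35424600-35424899 (plus strand) for H2-Q6 and chr17:35438905-35439204 (plus strand) for H2-Q7. The other windows are chr17:36672148-36672447 (minus strand) for H2-M1, chr17:36042693-36042992 (minus strand) for H2-T22, chr17:34287774-34288073 (minus strand) for H2-Aa and chr17:34305617-34305916 (plus strand) for H2-Eb1.
H2-K1: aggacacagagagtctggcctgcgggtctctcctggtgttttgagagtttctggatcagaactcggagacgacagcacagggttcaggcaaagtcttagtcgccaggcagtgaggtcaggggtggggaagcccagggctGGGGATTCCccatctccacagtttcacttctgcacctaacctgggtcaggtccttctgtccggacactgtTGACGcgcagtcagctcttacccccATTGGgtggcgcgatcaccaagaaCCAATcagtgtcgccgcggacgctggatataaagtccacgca
H2-D1: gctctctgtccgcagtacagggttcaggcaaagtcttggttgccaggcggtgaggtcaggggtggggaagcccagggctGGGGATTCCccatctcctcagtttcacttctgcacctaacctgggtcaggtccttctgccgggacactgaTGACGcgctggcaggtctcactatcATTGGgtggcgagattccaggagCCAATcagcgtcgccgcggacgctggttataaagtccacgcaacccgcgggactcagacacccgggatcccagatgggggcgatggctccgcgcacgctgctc
H2-Q6: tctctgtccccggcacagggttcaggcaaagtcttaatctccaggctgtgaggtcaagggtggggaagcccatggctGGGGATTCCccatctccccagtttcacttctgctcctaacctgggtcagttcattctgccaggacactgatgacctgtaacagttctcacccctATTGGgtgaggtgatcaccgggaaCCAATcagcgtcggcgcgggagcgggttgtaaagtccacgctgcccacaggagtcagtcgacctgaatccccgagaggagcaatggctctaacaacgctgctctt
H2-Q7: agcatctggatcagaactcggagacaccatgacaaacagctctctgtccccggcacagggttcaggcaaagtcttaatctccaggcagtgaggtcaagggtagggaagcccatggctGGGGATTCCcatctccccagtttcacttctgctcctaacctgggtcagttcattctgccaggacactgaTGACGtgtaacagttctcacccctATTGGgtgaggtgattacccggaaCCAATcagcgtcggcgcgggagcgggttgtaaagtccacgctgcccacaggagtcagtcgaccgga
H2-M1: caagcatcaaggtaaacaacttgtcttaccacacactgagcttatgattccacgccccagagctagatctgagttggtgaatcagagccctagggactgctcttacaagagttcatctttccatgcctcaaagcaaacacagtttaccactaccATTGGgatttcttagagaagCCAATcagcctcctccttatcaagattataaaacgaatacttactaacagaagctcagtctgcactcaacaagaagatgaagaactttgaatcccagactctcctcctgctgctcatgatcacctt
H2-T22: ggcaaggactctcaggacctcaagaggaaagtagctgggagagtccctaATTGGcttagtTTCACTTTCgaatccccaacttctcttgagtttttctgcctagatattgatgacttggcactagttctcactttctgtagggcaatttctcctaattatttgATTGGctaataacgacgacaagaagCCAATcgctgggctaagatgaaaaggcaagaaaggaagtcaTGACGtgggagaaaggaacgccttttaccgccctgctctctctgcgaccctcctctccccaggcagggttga
H2-Aa: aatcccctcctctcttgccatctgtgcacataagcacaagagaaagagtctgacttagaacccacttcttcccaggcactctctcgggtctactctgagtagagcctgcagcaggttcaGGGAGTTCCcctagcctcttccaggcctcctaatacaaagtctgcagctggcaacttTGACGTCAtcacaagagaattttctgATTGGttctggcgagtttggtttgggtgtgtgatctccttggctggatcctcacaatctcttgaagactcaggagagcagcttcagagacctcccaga
H2-Eb1: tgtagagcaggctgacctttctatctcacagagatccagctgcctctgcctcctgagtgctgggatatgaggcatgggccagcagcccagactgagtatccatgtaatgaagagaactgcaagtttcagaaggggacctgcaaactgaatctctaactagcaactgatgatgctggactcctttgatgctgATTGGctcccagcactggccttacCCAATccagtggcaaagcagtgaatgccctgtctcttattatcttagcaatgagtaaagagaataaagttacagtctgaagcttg

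The Y box core was found in 27 of the 31 H2 promoters (87.1%), against 37.9% of all 27025 promoters in the table. The kappaB core stood in 7 of 31 (22.6%), against 5.72% of all, and those 7 were H2-K1, H2-D1, H2-Q4, H2-Q6, H2-Q7, H2-Aa and H2-Oa. The TGACG core stood in 11 of 31 (35.5%), against 21.0% of all, and the interferon element core in 2 of 31 (6.45%, H2-T22 and H2-T23), against 8.57% of all. In H2-Aa the kappaB core began 131 bases before the start, and TGACG overlapped its own reverse complement. The distance from the kappaB core to the Y box core was 95 bases in both H2-K1 and H2-D1, 94 in H2-Q4 and H2-Q6, and 93 in H2-Q7, but 83 in H2-Aa, and in H2-Oa the kappaB core began 18 bases after the Y box core. Among the class I promoters the distance was alike although the kappaB core itself began 111 bases before the start in H2-K1 and 171 bases before it in H2-D1. TGACG began 25 bases before a Y box core in H2-K1, H2-D1 and H2-M3, 24 bases in H2-Q7 and 26 bases in H2-Aa. It began 6 bases after the Y box core in H2-Q4, and 66 and 179 bases after the Y box cores in H2-T22. H2-M3 also has a Y box core 83 bases before its TGACG. These distances used only matches printed as ATTGG and TGACG. Matches printed as CCAAT, such as a further Y box core in H2-T22, or as CGTCA, as in H2-M10.3, were not measured. A match is a description of these letters and not a site of binding, and promoters of relatives are not independent examples.

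Several of these promoters share long identical stretches, which matters because reads from such stretches cannot be placed at 1 gene. Of the 31 promoters, 16 shared at least 1 run of 36 bases with another gene's promoter. The 9 H2 genes without a promoter sequence, H2-T24 and H2-T10 among them, could not be checked for this. The longest identical run was 86 bases between H2-T23 and H2-T-ps, 67 between H2-Q6 and H2-Q7, 65 between H2-M10.3 and H2-M10.5, 60 between H2-M9 and H2-M1, and 47 between H2-K1 and H2-D1. The H2-DMa promoter shared 90.9% of its 36-base words with that of Brd2, and the H2-T22 promoter shared 93.2% with that of Gm6034. Brd2 and Gm6034 are neighbours of these members on the chromosome, and words were compared on both strands. For these pairs, overlapping windows at 1 locus were not told apart from repeated stretches, and the same reads may count for both genes. How the authors treated reads with several matches is not given in the sources used here, so values of these members are uncertain as to which gene they describe.

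Total promoter counts lay between 6842296 (TAC TSA) and 9905553 (Sham TSA). Values are given below as scaled counts, the deposited counts divided by a library factor (trimmed mean of M-values) so that libraries of unequal depth can be compared. A log2 ratio of one library against another has the first on top and is given with a 95% interval that covers counting error only, compares 2 libraries rather than 2 conditions, and treats PCR reads as independent. Promoters of olfactory and vomeronasal receptors, silent in heart, measured the background: their median was 27.2 scaled counts in TAC TSA, 19.6 in TAC Veh, 16.2 in Sham TSA and 15.6 in Sham Veh. This background was highest in TAC TSA, which bears on every promoter of low count. Scaling the libraries on it lowers the log2 ratios so that the median of all genes is −0.24 in TAC Veh against Sham Veh, −0.61 in TAC TSA against Sham TSA, −0.38 in TAC TSA against TAC Veh and −0.02 in Sham TSA against Sham Veh, and a positive ratio smaller than that lowering turns negative. The 10 cardiomyocyte markers together had 4529 scaled counts in TAC TSA, 2697 in TAC Veh, 4588 in Sham TSA and 3942 in Sham Veh, and none was at 0. In whole tissue, fewer cells of a type and less acetylation per cell cannot be told apart.

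The H2 family spanned a wide range of acetylation, from H2-M1 with a mean of 28.4 scaled counts over the 4 libraries to H2-DMa with 1139.9, against a median of 226 over all 22835 promoters with a mean count of at least 10. All 38 H2 promoters passed that minimum. The 2 classical class I promoters were high, at 427 (H2-D1) and 409 (H2-K1). The T series had a median of 304 and ran from 103 (H2-T3) to 410.1 (H2-T22), and the Q series had a median of 123 and ran from 87.9 (H2-Q5) to 335 (H2-Q4). The M series had the lowest median, 43.2, with H2-M3 alone at 355. The length of the promoter window is not given in the sources used here, so these levels compare windows as the authors defined them.

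Class II chain promoters had a median of 127 and ran from 53.5 (H2-Eb2) to 293 (H2-Ab1), and those of DM and DO had a median of 147 and ran from 125 (H2-Oa) to 1139.9 (H2-DMa). The 95th percentile of the 1278 receptor promoters used was 53.6 scaled counts, and 30 of the 38 H2 promoters lay above it. Those above included both classical class I, all 7 Q, all 6 T, all 5 DM and DO and 3 of 4 class II chain promoters, but only 4 of 11 of the M series (H2-M3, H2-M5, H2-M10.2 and H2-M10.6). The M10 genes, H2-M1 and H2-M9 are known for expression in vomeronasal neurons, and H2-M1 and H2-M9 were the lowest of the family. H2-Eb2 stood just below the 95th percentile of the receptors. Leaving out receptors of low count can only raise that percentile or leave it as it is. Whether H2-Eb2 lies above it with all receptors was not tested.

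**Figure D1:**
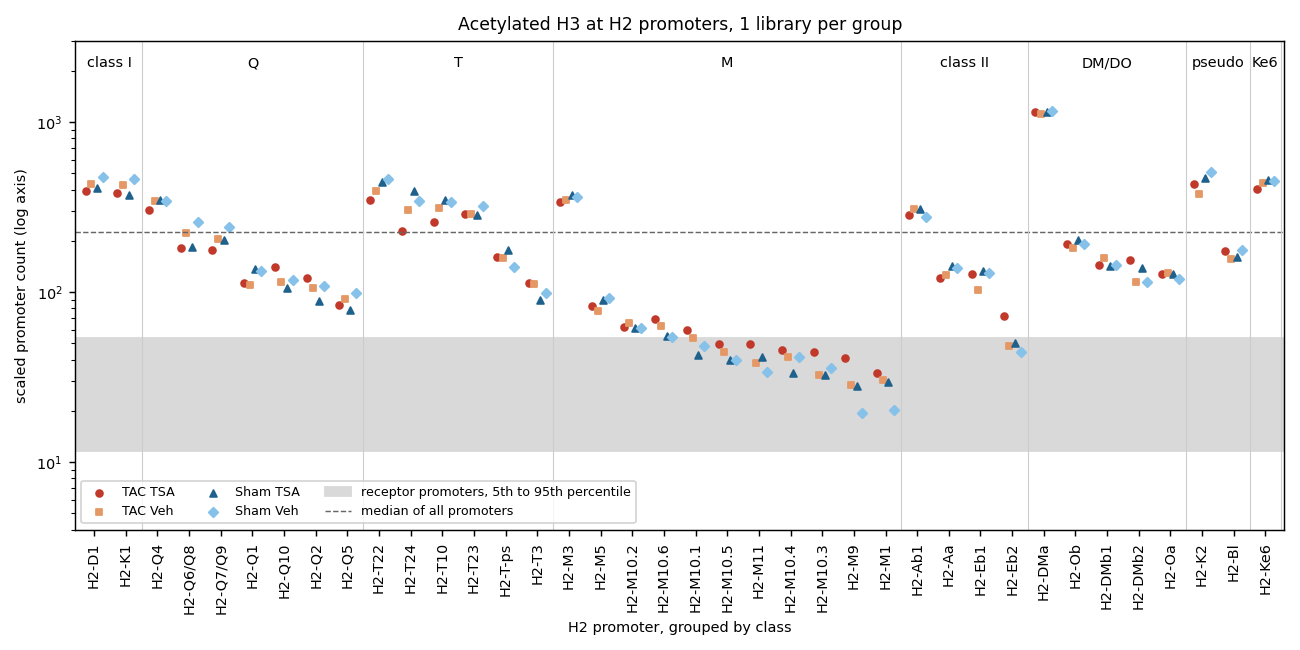
Scaled H3Ac promoter counts (log axis) of the 38 H2 promoters in the 4 libraries, by class and in falling order of the mean; the grey band spans the 5th to the 95th percentile of the receptor promoters and the dashed line is the median of all promoters. Most M series promoters lie in the band, and the 2 classical class I promoters lie above the dashed line in every library.

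The family's share of the promoter counts varied little in size, but its TAC Veh interval did not reach that of Sham Veh. The 38 promoters held 0.124% of the counts of all genes in TAC TSA (exact binomial 95% interval 0.121 to 0.128), 0.124% in TAC Veh (0.121 to 0.126), 0.125% in Sham TSA (0.122 to 0.128) and 0.130% in Sham Veh (0.127 to 0.133). The T series held 0.0230% in TAC TSA (0.0216 to 0.0243), 0.0252% in TAC Veh (0.0240 to 0.0265), 0.0273% in Sham TSA (0.0261 to 0.0285) and 0.0269% in Sham Veh (0.0257 to 0.0282). The share of the T series was lowest in TAC TSA, and its interval there did not reach that of either sham library. Classical class I held 0.0128% in TAC TSA (0.0118 to 0.0138) and 0.0138% in TAC Veh (0.0129 to 0.0147). It held 0.0122% in Sham TSA (0.0114 to 0.0131) and 0.0149% in Sham Veh (0.0140 to 0.0158). The classical class I interval in Sham Veh was not reached by that of either TSA library. The pseudogenes H2-K2 and H2-Bl held 0.00853% in TAC Veh (0.00783 to 0.00928) and 0.01081% in Sham Veh (0.01004 to 0.01161). Those intervals did not overlap. The Q series held 0.01798% in Sham TSA (0.01701 to 0.019) and 0.0206% in Sham Veh (0.01954 to 0.0217), also without overlap. The class II chains held 0.00997% in TAC TSA (0.0091 to 0.0109), 0.00938% in TAC Veh (0.00864 to 0.0102), 0.00995% in Sham TSA (0.00923 to 0.0107) and 0.00931% in Sham Veh (0.0086 to 0.0101), with overlapping intervals. Receptor promoters, silent in heart, held 0.67984% in TAC TSA (0.67258 to 0.68716) and 0.5073% in TAC Veh (0.50178 to 0.51286), without overlap. All these intervals cover counting error only, with no replicate library. How often the intervals of other gene sets fail to overlap was not tested.

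TAC Veh against Sham Veh sets pressure overload beside the sham operation without the drug. The median log2 ratio was −0.04 over the 38 H2 promoters and −0.00 over all genes. The 38 promoters ran from −0.44 (H2-K2) to 0.59 (H2-M1, with an interval of −0.25 to 1.45). None was at least 1.5-fold higher or lower with an interval excluding 1, a rule that 1.93% of all promoters met as higher and 0.582% as lower. The medians were −0.13 for classical class I, −0.04 for class Ib and −0.00 for class II. The intervals of 2 promoters lay below 0 without a 1.5-fold difference: H2-K2 at −0.44 (−0.63 to −0.24) and H2-T22 at −0.22 (−0.41 to −0.03). Among all genes 7.2% of intervals lay below 0 and 5.82% above.

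In TAC TSA against Sham TSA, the same contrast under the drug, 1 H2 promoter was lower, H2-T24, and none was higher. That is 2.63% of 38, against 0.206% of all promoters called lower and 7.2% called higher. The medians were −0.01 for classical class I, 0.07 for class Ib and −0.01 for class II, but those of classical class I and class Ib became 0.11 and −0.11 when the ratio was centred along mean count by loess. Besides H2-T24, the intervals of H2-T10 and H2-T22 lay below 0 and those of H2-Q10 (0.41, 0.02 to 0.79) and H2-Q2 (0.46, 0.04 to 0.88) above it. These 5 compare with 13.8% of all intervals below 0 and 10.34% above.

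In TAC TSA against TAC Veh, the drug after constriction, no H2 promoter met the 1.5-fold rule, which 4.06% of all promoters met as higher and 0.342% as lower. The medians were −0.15 for classical class I, 0.03 for class Ib and 0.04 for class II. Intervals lay above 0 for H2-DMb2, H2-Eb2 and H2-K2 and below 0 for H2-T24 and H2-T10, where 8.13% of all intervals lay above and 10.35% below. H2-Eb2, at 0.58 (0.01 to 1.16), lay just short of the 1.5-fold line, and was called with another scaling (relative log expression). Its scaled counts of 71.7 in TAC TSA, 48.0 in TAC Veh, 50.3 in Sham TSA and 44.1 in Sham Veh are near the receptor background.

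In Sham TSA against Sham Veh, the drug after the sham operation, no H2 promoter was called, where 0.582% of all promoters were called higher and 0.582% lower. The medians were −0.27 for classical class I, −0.02 for class Ib and 0.09 for class II. Intervals lay below 0 for H2-K1, H2-D1 and H2-Q6 and above 0 for H2-T-ps and H2-T24, where 3.81% of all intervals lay below and 5.2% above. The comparisons share libraries (each library serves in 2 of the 4), so they are not independent of each other.

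**Figure D2:**
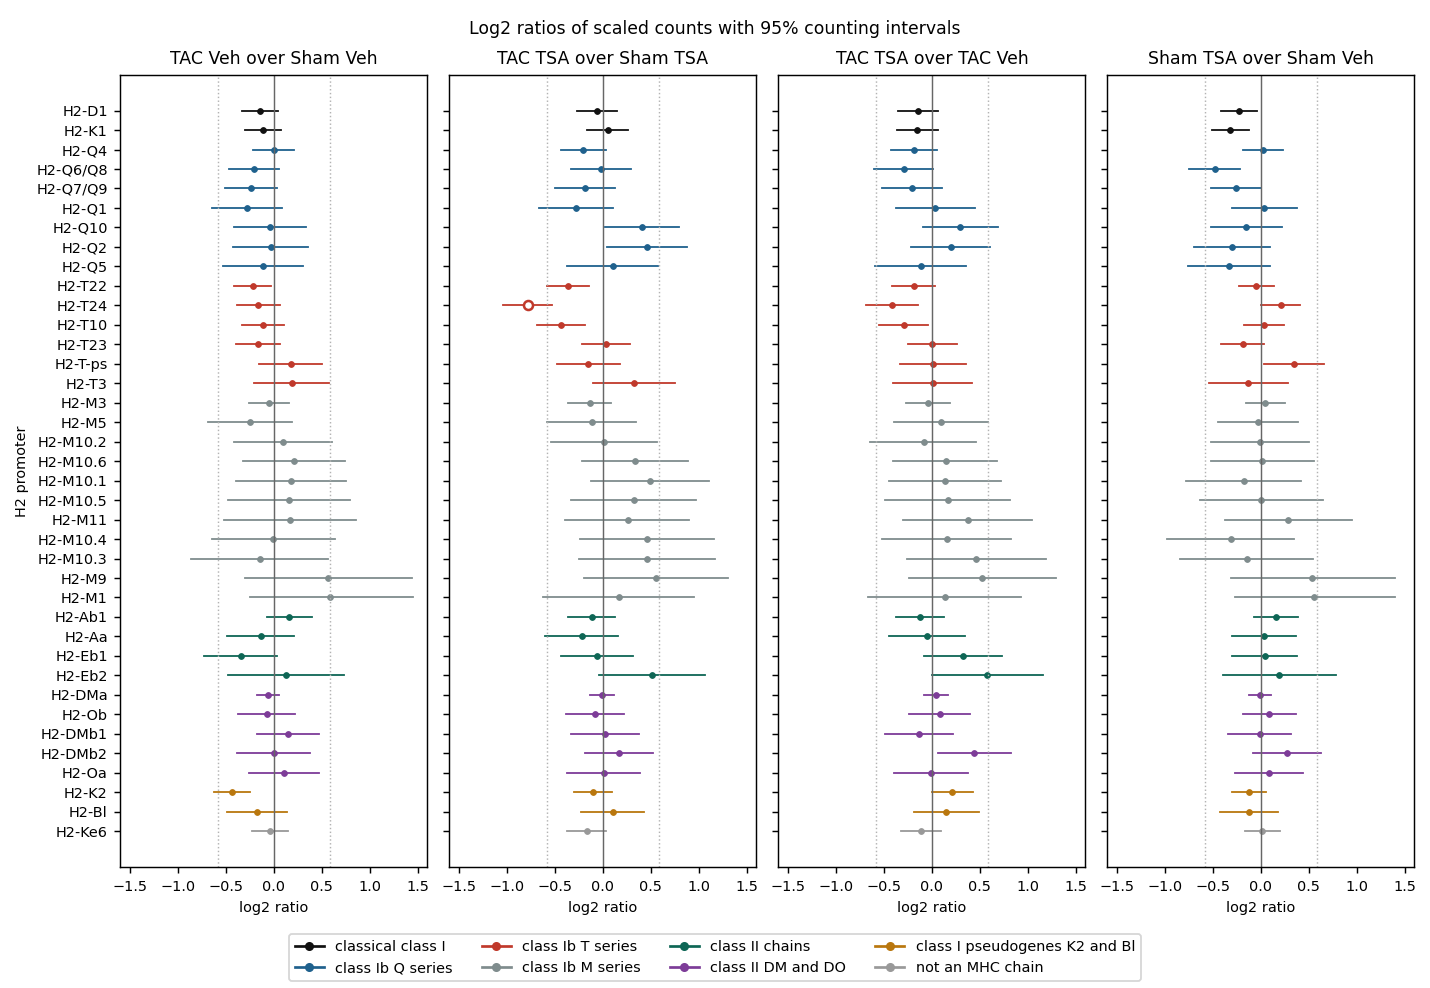
Log2 ratios of scaled counts (horizontal axis) of the 38 H2 promoters in the 4 comparisons, with 95% counting intervals as lines; colours give the class, dotted lines mark 1.5-fold and the open circle marks the only called promoter. H2-T24 at −0.78 in TAC TSA against Sham TSA stands beyond the dotted line, with H2-T22 and H2-T10 on the same side of 0 and the adjacent H2-T23 at 0.03.

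Among the classical class I genes, which encode the heavy chains that present peptides to CD8 T cells, H2-K1 had 382 scaled counts in TAC TSA, 424 in TAC Veh, 369 in Sham TSA and 460.3 in Sham Veh. H2-D1 had 391, 432, 407 and 477 scaled counts in TAC TSA, TAC Veh, Sham TSA and Sham Veh. Both were highest in Sham Veh and both had lower values in the drug library of each surgery. The log2 ratio of Sham TSA against Sham Veh was −0.32 (−0.51 to −0.13) for H2-K1 and −0.23 (−0.41 to −0.04) for H2-D1, and that of TAC TSA against TAC Veh was −0.15 (−0.37 to 0.06) and −0.15 (−0.36 to 0.07). All 4 differences were under 1.5-fold. As shown above, these promoters share a run of 47 bases.

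In the Q series, H2-Q6, which cannot be separated here from H2-Q8, had 182 scaled counts in TAC TSA, 222 in TAC Veh, 184 in Sham TSA and 257 in Sham Veh. H2-Q7, which cannot be separated from H2-Q9, had 177, 204, 201 and 241 in the same order of libraries. These genes encode the Qa-2 antigen. Like H2-K1 and H2-D1, both were highest in Sham Veh and lower in each TSA library than in the vehicle library of the same surgery. The log2 ratio of Sham TSA against Sham Veh was −0.48 (−0.75 to −0.22) for H2-Q6 and −0.26 (−0.52 to 0.01) for H2-Q7.

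H2-Q4 was the highest of the series, with 303 scaled counts in TAC TSA, 344 in TAC Veh, 349 in Sham TSA and 345 in Sham Veh. H2-Q5, annotated as a transcribed pseudogene, was the lowest, with 84.1, 91.1, 78.2 and 98.3 in that order. H2-Q10, a secreted class Ib molecule made mainly in liver, had 139.7, 114, 105 and 117 scaled counts in TAC TSA, TAC Veh, Sham TSA and Sham Veh. H2-Q2 had 121, 106, 88.1 and 108, again in that order, and both were highest in TAC TSA. H2-Q1 had 112, 109.7, 137 and 133, lower in both TAC libraries, with intervals that held 0.

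The T series held the H2 promoter whose log2 ratio was furthest from 0 in any comparison. H2-T24, a class Ib gene, had 185 counts (229 scaled) in TAC TSA, 311 counts (305 scaled) in TAC Veh, 438 counts (394 scaled) in Sham TSA and 371 counts (341 scaled) in Sham Veh. It was lowest in TAC TSA and highest in Sham TSA, with the vehicle libraries between them. The log2 ratio was −0.78 (−1.04 to −0.53) for TAC TSA against Sham TSA and −0.16 (−0.38 to 0.06) for TAC Veh against Sham Veh. The TSA ratio minus the vehicle ratio was −0.62 (−0.95 to −0.29), an interval that covers counting error only. The drug ratio was −0.41 (−0.68 to −0.15) after constriction and 0.21 (0.01 to 0.41) after the sham operation.

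H2-T10 and H2-T22, both known as ligands of gamma delta T cell receptors, were also lowest in TAC TSA. H2-T22 had 345 scaled counts in TAC TSA, 394 in TAC Veh, 443 in Sham TSA and 458 in Sham Veh, and H2-T10, annotated here as a transcribed pseudogene, had 256, 313, 346 and 339 in that order. The log2 ratio of TAC TSA against Sham TSA was −0.44 (−0.69 to −0.19) for H2-T10 and −0.36 (−0.58 to −0.15) for H2-T22, both under 1.5-fold. Gm6034, a neighbour whose promoter shares most of its letters with that of H2-T22, had a log2 ratio of −0.40 (−0.62 to −0.18). That value is not independent of the one for H2-T22. A neighbour of H2-T24 on the chromosome, A930015D03Rik, had −0.28 (−0.51 to −0.06), and Gm7030, a neighbour of H2-T10, had 0.01 (−0.48 to 0.50).

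The other T series promoters followed other orders of the libraries. H2-T23, which encodes Qa-1, the ligand of the NKG2A receptor of natural killer cells, lies next to H2-T24 and H2-T22 and had 288 scaled counts in TAC TSA, 287 in TAC Veh, 282 in Sham TSA and 322 in Sham Veh. Its log2 ratio of TAC TSA against Sham TSA was 0.03 (−0.22 to 0.28). H2-T-ps had 159 scaled counts in TAC TSA, 158 in TAC Veh, 177 in Sham TSA and 139.7 in Sham Veh, with 0.34 (0.03 to 0.66) for Sham TSA against Sham Veh. H2-T3, the thymus leukemia antigen, was the lowest of the series, with 112, 112, 89.9 and 98.3 in that order.

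**Figure D3:**
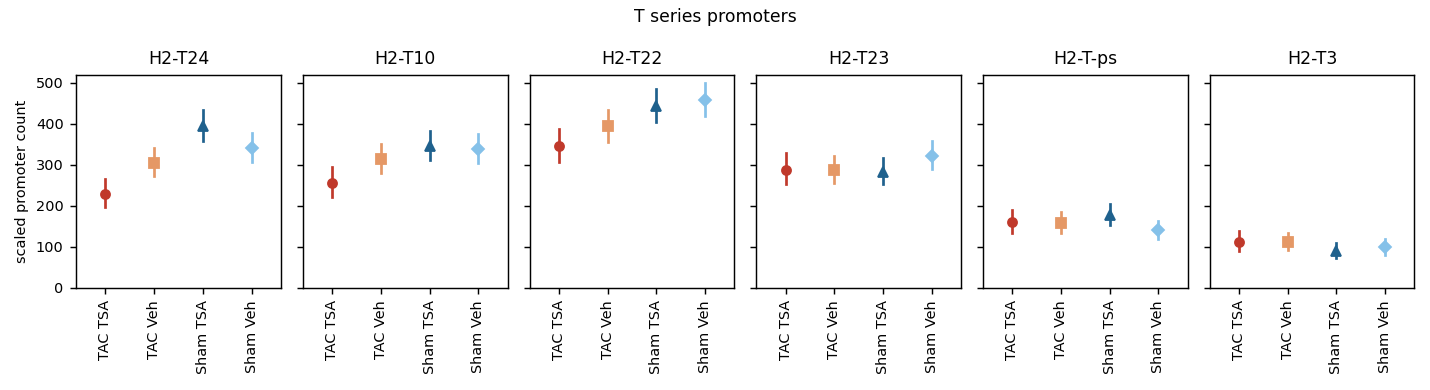
Scaled H3Ac promoter counts of the 6 T series promoters in each library, with exact 95% Poisson intervals for counting error. H2-T24 ranges from 229 in TAC TSA to 394 in Sham TSA, whereas H2-T23 stays between 282 and 322.

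In the M series, H2-M3, which presents N-formylated bacterial peptides, had 339 scaled counts in TAC TSA, 349 in TAC Veh, 372 in Sham TSA and 361 in Sham Veh, and all 4 of its intervals held 0. Its value was several times that of any other M series promoter, the next being H2-M5 with 82.8, 77.4, 89.9 and 91.9 in TAC TSA, TAC Veh, Sham TSA and Sham Veh. H2-M1, the lowest, had 33.4, 30.4, 29.7 and 20.2, and H2-M9 had 40.8, 28.4, 27.9 and 19.3, in that order. Both were highest in TAC TSA and lowest in Sham Veh, as the receptor promoters were. The 6 M10 genes and H2-M11 had means between 36.3 (H2-M10.3) and 62.5 (H2-M10.2), and no interval of the series excluded 0 in any comparison. The series' median log2 ratio of TAC TSA against Sham TSA was 0.32, with 9 of 11 positive and none called, and became −0.03 under loess centring.

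Among the class II chains, H2-Ab1, the beta chain of I-A, had 283 scaled counts in TAC TSA, 308 in TAC Veh, 307 in Sham TSA and 276 in Sham Veh. H2-Aa, its alpha chain, had 121, 125, 141 and 138 in TAC TSA, TAC Veh, Sham TSA and Sham Veh. H2-Eb1, the beta chain of I-E, had 127, 102, 133 and 129.5 in the same order. The order of the libraries differed between these 3 promoters, and all 12 of their intervals held 0. The most extreme ratio among them was −0.35 (−0.73 to 0.03) for H2-Eb1 in TAC Veh against Sham Veh.

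H2-DMa and the DMb genes encode DM, which exchanges peptides on class II molecules, and H2-Oa and H2-Ob encode DO, which modulates DM. H2-DMa had 1143 scaled counts in TAC TSA, 1109.9 in TAC Veh, 1149 in Sham TSA and 1158 in Sham Veh, with log2 ratios between −0.06 and 0.04. Its mean stood at percentile 99.9 of all promoters. Brd2, which encodes a bromodomain protein, shares most promoter words with 1 of the 2 H2-DMa starts. It had log2 ratios of 0.01, 0.00, −0.02 and −0.01 in TAC Veh against Sham Veh, TAC TSA against Sham TSA, TAC TSA against TAC Veh and Sham TSA against Sham Veh. H2-DMb2 had 155 scaled counts in TAC TSA, 114 in TAC Veh, 138 in Sham TSA and 114 in Sham Veh, higher in both drug libraries, with 0.44 (0.07 to 0.82) after constriction and 0.27 (−0.08 to 0.63) after the sham operation. H2-DMb1, H2-Oa and H2-Ob had log2 ratios between −0.13 and 0.15 in the 4 comparisons, all with intervals that held 0.

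The class I pseudogene H2-K2 had 434 scaled counts in TAC TSA, 374 in TAC Veh, 466 in Sham TSA and 506 in Sham Veh, lowest in TAC Veh. Its neighbour AA388235 had a log2 ratio of −0.50 (−0.76 to −0.24) in TAC Veh against Sham Veh and 0.45 (0.18 to 0.73) in TAC TSA against TAC Veh, beside −0.44 and 0.21 (0.00 to 0.43) for H2-K2. H2-K1, on the other side of AA388235, had −0.12 and −0.15 in the same comparisons. Vps52, the neighbour of H2-K2 on its other side, had −0.17 (−0.32 to −0.01) and −0.015 (−0.19 to 0.15). H2-Bl had 173, 156, 161 and 175 scaled counts in TAC TSA, TAC Veh, Sham TSA and Sham Veh, and H2-Ke6 had 404, 438, 454 and 450.2 in that order, and the intervals of both held 0 throughout.

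A model of all 4 libraries with additive effects of surgery and drug was the only test of a condition, and its spread rests on 1 residual degree of freedom. No H2 gene passed an adjusted p of 0.05 for surgery or for the drug by edgeR's quasi-likelihood test, where 3 genes of 22835 were called higher and 5 lower for surgery, and 47 higher and 2 lower for the drug. DESeq2 and limma-voom also called 0 H2 genes. At an unadjusted p under 0.05, edgeR found 4 of the 38 H2 promoters for surgery (10.53%, against 9.32% of all genes) and 3 for the drug (7.89%, against 4.27%). Limma-voom found 4 (9.39% of all genes) and 3 (4.19% of all genes), and DESeq2 found 1 (0.206% of all genes) and 0 (0.267% of all genes). H2-T24 had a log2 change of −0.46 for surgery (adjusted p 0.106 by edgeR), lower in both TAC libraries than in their sham libraries, and H2-T22 had −0.29 (adjusted p 0.362). The identical H2-Q6 and H2-Q8 had −0.39 for the drug (adjusted p 0.557 by edgeR), lower in both TSA libraries than in their vehicle libraries.

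The genes that load class I molecules and that regulate both classes were read beside the H2 promoters. Calls in these and the later lists stand beside the shares of all promoters given above for each comparison. Of 14 class I peptide loading genes (B2m, the Tap, Tapbp and Psmb genes and others), none was called in any comparison. In TAC TSA against Sham TSA 9 of the 14 had intervals below 0, where 13.8% of all intervals lay below it. The list median there was −0.25 (−0.13 under loess centring). B2m, the light chain of all class I molecules, had 551 scaled counts in TAC TSA, 656 in TAC Veh, 664 in Sham TSA and 617 in Sham Veh, with −0.27 (−0.44 to −0.10) in TAC TSA against Sham TSA. The list medians in the other comparisons were −0.09 in TAC Veh against Sham Veh, −0.19 in TAC TSA against TAC Veh and −0.05 in Sham TSA against Sham Veh. H2-K1 and H2-D1 had 0.05 and −0.06 in TAC TSA against Sham TSA, where the loading genes ran from −0.38 (Psmb10) to 0.13 (Erap1).

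Of 8 class II loading genes, all 8 had negative log2 ratios in TAC TSA against Sham TSA (median −0.31), as had 11877 of all 22835 genes. Of the 8, 1 was called lower there, against 0.206% of all promoters. It was Marchf1, a ubiquitin ligase that removes class II molecules from the surface, at −0.69 (−1.19 to −0.20). Marchf1 was called higher in Sham TSA against Sham Veh at 0.79 (0.34 to 1.25). Ctss, the protease cathepsin S that trims the invariant chain, was called higher in TAC Veh against Sham Veh at 0.60 (0.25 to 0.95) and lower in TAC TSA against TAC Veh at −0.84 (−1.25 to −0.44). Cd74, the invariant chain, had 84.1 scaled counts in TAC TSA, 107 in TAC Veh, 123 in Sham TSA and 115 in Sham Veh, with −0.55 (−0.99 to −0.12) in TAC TSA against Sham TSA, just short of 1.5-fold. The list medians were −0.04 in TAC Veh against Sham Veh, −0.16 in TAC TSA against TAC Veh and 0.11 in Sham TSA against Sham Veh.

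None of 13 regulators of MHC transcription was called, with list medians of 0.01, −0.14, −0.16 and 0.09 in TAC Veh against Sham Veh, TAC TSA against Sham TSA, TAC TSA against TAC Veh and Sham TSA against Sham Veh. Ciita had 155, 147, 154 and 138 scaled counts in TAC TSA, TAC Veh, Sham TSA and Sham Veh, and Nlrc5 had 111, 126, 114 and 98.3 in that order, and every interval of both held 0. Of 9 class I-like genes without an H2 symbol, Mill1 was called higher in TAC TSA against Sham TSA at 1.08 (0.30 to 1.89), from 37 and 24 counts, and of 5 interferon gamma pathway genes Ifng was called higher there at 0.77 (0.12 to 1.42), from 47 and 38 counts. Both were under 1.5-fold with loess centring (0.54 and 0.33). The list medians in TAC TSA against Sham TSA were −0.01 for the class I-like genes and −0.13 for the interferon gamma genes. In TAC Veh against Sham Veh, TAC TSA against TAC Veh and Sham TSA against Sham Veh they were −0.05, 0.04 and 0.02 for the class I-like genes, and 0.10, −0.10 and 0.04 for the interferon gamma genes.

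Markers of macrophages, which carry class II molecules, moved between the libraries. The 9 macrophage markers measured together had 1308 scaled counts in TAC TSA, 1684 in TAC Veh, 1702 in Sham TSA and 1354 in Sham Veh, and none was at 0. Their median log2 ratio was −0.40 in TAC TSA against Sham TSA, −0.42 in TAC TSA against TAC Veh, 0.28 in TAC Veh against Sham Veh and 0.38 in Sham TSA against Sham Veh, and C1qb was called lower at −1.04 (−1.39 to −0.70) and −0.87 (−1.22 to −0.52) in the comparisons with TAC TSA. The class II chains summed to 603 scaled counts in TAC TSA, 583 in TAC Veh, 632 in Sham TSA and 587 in Sham Veh. The median log2 ratio of the 4 chains was −0.09 in TAC TSA against Sham TSA, 0.14 in TAC TSA against TAC Veh, −0.01 in TAC Veh against Sham Veh and 0.10 in Sham TSA against Sham Veh, with intervals of single chains that held 0 except that of H2-Eb2 in TAC TSA against TAC Veh. H2-T24 was lowest in TAC TSA and highest in Sham TSA, as the macrophage sum was, but in the vehicle pair it was lower in TAC Veh than in Sham Veh (−0.16) where the macrophage median was 0.28, and the part of these cells in its difference was not tested.

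The 8 pan-leukocyte markers summed to 1410.4 scaled counts in TAC TSA, 1639 in TAC Veh, 1589 in Sham TSA and 1409 in Sham Veh, with medians of −0.22, −0.34, 0.34 and 0.17 in TAC TSA against Sham TSA, TAC TSA against TAC Veh, TAC Veh against Sham Veh and Sham TSA against Sham Veh. Ptprc (CD45) was called lower in TAC TSA against Sham TSA at −0.78 (−1.29 to −0.29) and against TAC Veh at −0.65 (−1.17 to −0.15), and higher in Sham TSA against Sham Veh at 0.64 (0.21 to 1.08), and Itgam was called higher in TAC Veh against Sham Veh at 0.60 (0.15 to 1.05). The dendritic cell list had medians between −0.09 and 0.07 with none of 8 called. The 8 B cell markers had medians of 0.25, 0.33, 0.07 and −0.09 in the order of the pan-leukocyte list, with Cr2 (0.95) and Ms4a1 (0.65) called higher in TAC TSA against Sham TSA. The 8 T cell markers had medians of 0.21, 0.32, −0.02 and 0.12 in that order, with Cd8a called higher in TAC TSA against Sham TSA (0.67) and against TAC Veh (0.63) and Cd2 called lower in TAC Veh against Sham Veh (−0.70). Loess centring left Cr2, Ms4a1 and Cd8a under 1.5-fold, and all 3 have counts of at most 60 in the libraries compared.

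Markers of the main cells of the ventricle moved in another way. The cardiomyocyte list had a median of −0.57 in TAC Veh against Sham Veh. Called lower there were 5 of 10 (Actc1, Myh6, Ryr2, Tnnt2 and Pln, between −0.86 and −0.59), against 0.582% of all promoters. In TAC TSA against TAC Veh its median was 0.68, with 8 of 10 called higher, against 4.06% of all promoters. These were led by Actc1 at 1.15 and Myh6 at 1.12, with Ttn, Ryr2, Mybpc3, Tnnt2, Pln and Tnni3 between 0.61 and 0.79. The cardiomyocyte medians were −0.01 in TAC TSA against Sham TSA and 0.19 in Sham TSA against Sham Veh, with none called. The 8 endothelial markers had none called, with medians of −0.21 in TAC Veh against Sham Veh, −0.08 in TAC TSA against Sham TSA, 0.06 in TAC TSA against TAC Veh and −0.06 in Sham TSA against Sham Veh. H2-K2 and AA388235 were lowest in TAC Veh, as the cardiomyocyte sum was, but H2-K2 was highest in Sham Veh and the cardiomyocyte sum in Sham TSA, and the part of these cells in that difference was not tested.

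**Figure D4:**
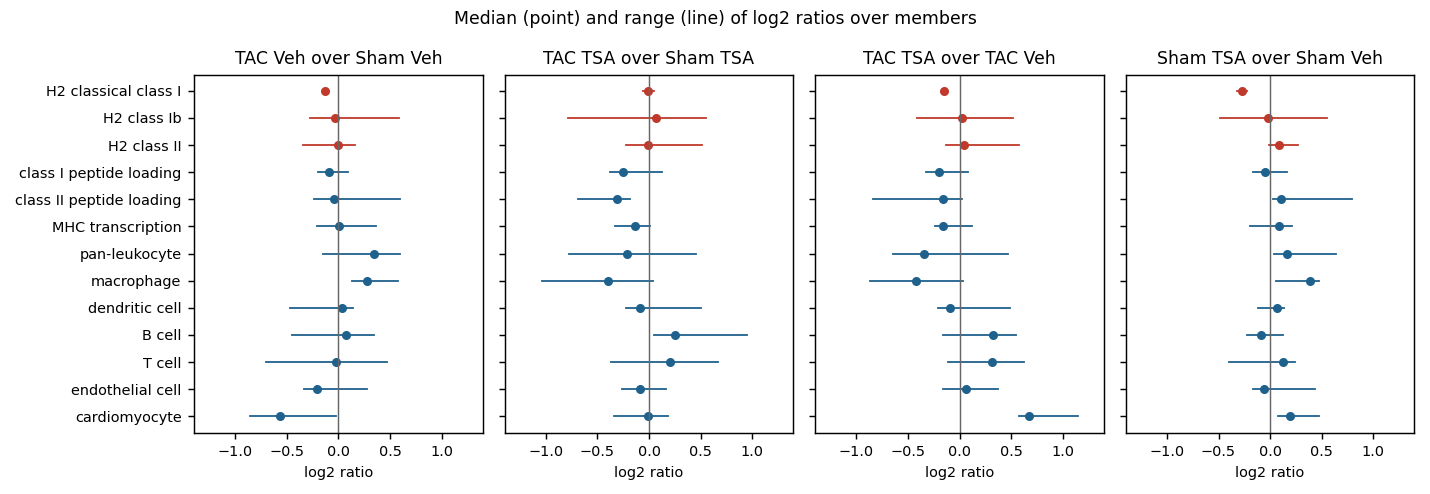
Median (point) and range (line) over members of the log2 ratio of scaled counts in the 4 comparisons, for 3 H2 classes (red) and for lists of other genes (blue). The H2 class medians stay between −0.27 and 0.09, whereas the cardiomyocyte median runs from −0.57 in TAC Veh against Sham Veh to 0.68 in TAC TSA against TAC Veh.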

How the data were processed

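The authors deposited raw counts of H3Ac ChIP-seq reads per promoter of each RefSeq transcript, not normalised, per the values of the table. The submitters' processing notes name the aligner BWA 0.5.9, the peak caller MACS 1.4.1 and the build mm9. Which tool made the counts, the window, duplicate and multiple matches and any input were not given in the sources used here. Deposited region lists were not used, since no annotation of their build was at hand to tie regions to genes.

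Symbols came from RefSeq (GRCm38.p6), by which 479 of 31594 IDs stayed unmatched (1.13% of counts or less per library). Libraries were scaled by TMM (edgeR 4.0.16, R 4.3.3). Ratios carry exact conditional (Clopper-Pearson) 95% intervals, and a promoter was called at 1.5-fold or more with an interval excluding 1. With 1 library per group, no pairwise test of conditions exists. The additive model, whose 1 residual degree of freedom is the interaction, used edgeR's quasi-likelihood test with Benjamini-Hochberg adjustment, with DESeq2 1.42.0 and limma 3.58.1 (voom) as alternatives. Loess centring removed the trend of the ratio with mean count. Methods were run on simulated Poisson counts, without further variation between libraries or a changed background. Those runs cannot vouch for calls where either is present. The rest used scipy 1.17.1, numpy 2.4.6, pandas 2.3.3, statsmodels 0.14.6 and matplotlib 3.10.9 under Python 3.11.15.

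Members and lists were chosen with earlier results of these data known. Named were H2-K1, H2-D1, H2-Aa, H2-Ab1, H2-Eb1, every called member, the highest and lowest of each class, called genes of the other lists, B2m, Cd74, Ciita and Nlrc5. Other members and neighbours were named after their values were seen.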

Additional observations from a re-analysis of the deposited data

Results flagged for a closer look

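H2-T24 had a drug ratio of opposite sign after the 2 operations: the log2 ratio was −0.41 in TAC TSA against TAC Veh and 0.21 in Sham TSA against Sham Veh, each from 1 library per group. The difference between them was not tested over replicates.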

How the results depend on the processing

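No paired analysis was possible because each group had 1 library, and for the same reason no replicate could be left out. With scaling on the receptor promoters, the H2 promoters called lower became 2 in TAC Veh against Sham Veh (H2-Eb1 and H2-K2; 5.26% of 38, against 3.79% of all genes), 19 in TAC TSA against Sham TSA (50%, against 52.1%) and 4 in TAC TSA against TAC Veh (H2-Q6, H2-Q7, H2-T10 and H2-T24; 10.53%, against 14.2%). The classical class I median became −0.37, −0.60 and −0.53 in those comparisons, the class Ib median −0.53 in TAC TSA against Sham TSA, and the class II median −0.60 in TAC TSA against Sham TSA and −0.34 in TAC TSA against TAC Veh. At 2-fold, 0 H2 promoters were lower in TAC TSA against Sham TSA. With RLE scaling, 1 was higher in TAC TSA against TAC Veh (H2-Eb2). Loess centring changed the calls over all genes to 194 higher and 250 lower in TAC Veh against Sham Veh (440 and 133 with TMM), 186 and 309 in TAC TSA against Sham TSA (1643 and 47), 311 and 253 in TAC TSA against TAC Veh (927 and 78), and 133 and 125 in Sham TSA against Sham Veh (133 and 133), while H2-T24 stayed the only called H2 promoter, at −0.70. No H2 promoter called higher with some setting was called lower with another in the same comparison. Signs did change: H2-Oa, at 0.01 in TAC TSA against Sham TSA with TMM, was among those called lower there with receptor scaling. The class Ib median in that comparison (0.07 with TMM) and the class II median in TAC TSA against TAC Veh (0.04 with TMM) also became negative with receptor scaling. Counting every symbol, requiring a mean count of 100 (both chosen after seeing the data), omitting the low-count filter, taking the lowest-count RefSeq ID or leaving out members that share a 36-base word changed no H2 call. H2-T24, the only called promoter, had no promoter sequence here, so leaving out members by shared words could not remove it. It has 1 RefSeq ID and a mean count of 326, so the other settings in this list left its counts unchanged.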
